A study of Mus musculus with 18 samples.

Results

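In mouse kidneys with nephron-specific *Lin28A* overexpression (OE), 88 protein-coding genes were selected as higher than in controls after 5 weeks of doxycycline (Dox) but not after 1 or 2 weeks. They were chosen on the normalized reads themselves, out of 21973 protein-coding genes among 49585 gene rows. For each week a log2 ratio was taken as log2 of (mean OE + 10) over (mean control + 10). A gene was kept when its ratio was at least 1 at 5 weeks and below 0.5 at 1 and at 2 weeks, and when all 3 OE values at 5 weeks lay above all 3 control values. Whole-kidney RNA was sequenced from 18 libraries in 6 groups of 3, OE and control kidneys at each of 3 times of Dox, given at 1 g/L. By the labels every mouse, control or OE, carried Lox-stop-Lox-TetOn-*Lin28A* and received Dox, and the OE mice alone also carried Six2Cre. Six2Cre acts in the nephron progenitors, so the transgene is inducible in the tubules and podocytes derived from them and not in the stroma, the vessels or the collecting duct. Neither sex nor age is labelled. Values per library are given below as normalized reads, in the order of replicates 1, 2 and 3. Nothing in the labels ties the 3 libraries of a group to separate litters or preparations beyond their being separate samples, so a p-value here measures the spread between these samples.

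*Lin28A* encodes an RNA-binding protein of early development that blocks the maturation of the let-7 microRNAs and also binds many messenger RNAs. Injured kidney tubules lose the enzymes and carriers of the proximal tubule, which oxidises fatty acids and handles steroids and drugs. Persistent injury is known for the expansion of fibroblasts and myofibroblasts, which deposit matrix and carry smooth muscle actin. In bulk tissue, fewer cells of a type and less RNA per cell cannot be told apart.

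The libraries held 21176911 to 28686369 recovered reads. Within each week the *Lin28a* values of OE and control libraries did not overlap, at 615, 600.2 and 420.1 normalized reads in OE kidneys and 28.5, 26.4 and 16.4 in control kidneys at 5 weeks. At 1 and 2 weeks the OE libraries held 41737 to 116461 normalized reads of it. *Xist*, transcribed from the inactive X chromosome, was high and the Y-linked *Ddx3y* at or near 0 in 6 libraries. These were OE replicate 1 of week 1, OE replicates 2 and 3 and control replicate 1 of week 2, and OE replicate 2 and control replicate 3 of week 5. The other 12 libraries had *Ddx3y* above 100 normalized reads.

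Of the protein-coding genes 865 had a log2 ratio of at least 1 at 5 weeks, 727 of them with OE and control values that did not overlap, and 88 of these stayed below 0.5 at both earlier times. The median ratio of the 88 was -0.03 at 1 week, -0.02 at 2 weeks and 1.26 at 5 weeks, with a range of 1.00 to 3.70 at 5 weeks. The selection fixed these values, so they describe the genes and test nothing. The members nearest to the 5-week limit were *Alcam* at 1.00, *Gpc3* at 1.01 and *Bsn* at 1.01, and just outside it lay *Cbr2* at 0.994, *Loxl1* at 0.988 and *Ints6l* at 0.982. Nearest to the early limit were *Tnik* at 0.497 and *Plppr3* at 0.493, both at 2 weeks, and *Krt4* at 0.489 at 1 week. *Pappa* at 0.504 and *Ebf4* at 0.524 at 2 weeks, and *Col1a1* at 0.530 at 1 week, missed it.

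The genes were also set against limma, which was run on log2(normalized reads + 1) over all 16984 genes with a mean above 10, in 1 fit of the 18 libraries, with a Benjamini-Hochberg adjusted p under 0.05 as the threshold. That filter kept 76 of the 88, and the other 12 had too few reads. At 5 weeks 58 of the 76 were called higher in OE kidneys, where 7.67% of all genes were called higher and 7.9% lower. The 58 became 35 without OE replicate 2, 30 without OE replicate 3, 29 without control replicate 2 and 31 without control replicate 3 of week 5. The excess of the 5-week over the 2-week difference was called for 38 of the 76, against 14.9% of all genes, and that over the 1-week difference for 18, against 1.79%, with 11 left when week 1 control replicate 2, week 5 control replicate 2 or week 5 control replicate 3 was left out. These contrasts chose the genes, so nothing is read from the counts. The early limit was one-sided, and 16 of the 76 were called lower in OE kidneys at 2 weeks, against 28.8% of all genes, and 3 at 1 week, against 15.6%, of which 1 was left without week 1 control replicate 3. In the other direction *Sdk1* and *Kctd15* were called higher at 2 weeks, against 28.9% of all genes, with ratios under the limit of 0.5.

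**Figure D1:**
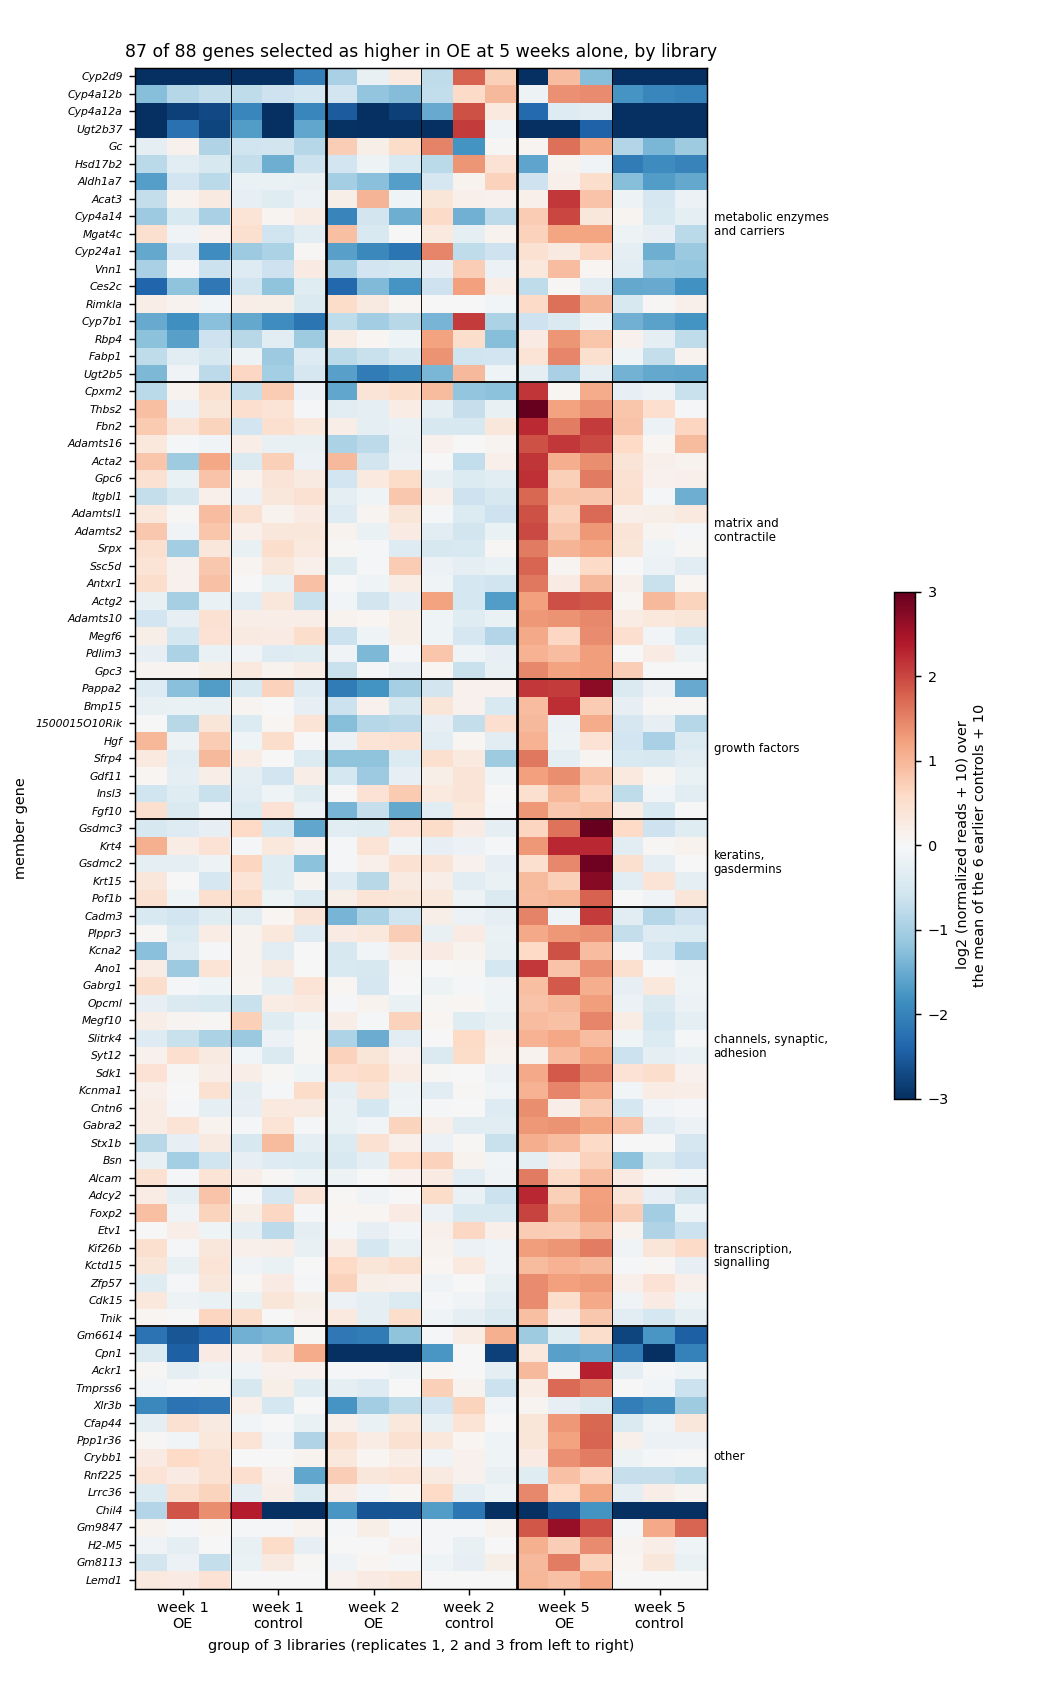
Colour shows 87 of the 88 genes in each of the 18 libraries as log2 of (normalized reads + 10) over the mean of the 6 controls of weeks 1 and 2 + 10, with rows grouped by role and columns by week, OE left of control. The week 5 OE columns are red in most rows, while among the metabolic enzymes many are pale there and blue in the week 5 controls.

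The 88 genes were sorted by known role into 7 groups, which were drawn up after their values had been seen. A week 5 difference can hold a high OE level, a low control level or both, so each week 5 mean was also set against the mean of the 6 controls of weeks 1 and 2. Over all 88 genes the median log2 ratio to these earlier controls was 1.11 in week 5 OE kidneys and -0.14 in week 5 control kidneys. The 17 matrix, proteoglycan and contractile genes had medians of 1.37 in OE kidneys and 0.20 in control kidneys. The 19 metabolic enzymes and carriers had medians of 0.48 in OE kidneys and -1.48 in control kidneys, and for 15 of the 19 the week 5 controls had the lowest of the 3 control means. Among the matrix genes that was so for 1 of 17, and among protein-coding genes with a mean above 10 for 5357 of 14708. By limma the metabolic genes' median log2 fold change in week 5 controls was -1.57 against week 2 and -0.63 against week 1. For the matrix genes it was 0.51 and -0.01. The earlier control mean pools both weeks, so the low week 5 control level of the metabolic genes was larger against week 2. That mean also gives weight to single high libraries. Week 2 control replicate 2 was the highest earlier control of *Cyp2d9*, *Cyp4a12a*, *Ugt2b37*, *Ces2c*, *Vnn1*, *Cyp7b1* and *Hsd17b2*. For *Cyp4a12b* and *Aldh1a7* it was week 2 control replicate 3, and for *Gc*, *Cyp24a1* and *Cyp4a14* week 2 control replicate 1.

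All 3 week 5 OE libraries lay above the other 15 libraries for 40 of the 88 genes, and for 33 of the 76 with a mean above 10. Among all protein-coding genes above that mean the share was 1.48%. The 40 comprised 10 of 17 matrix genes, 11 of 16 channel, synaptic and adhesion genes, 6 of 8 genes of transcription and signalling, 4 of 5 keratin and gasdermin genes, 4 of 8 growth factor genes, 4 of 15 others and, among the metabolic genes, *Rimkla* alone of 19. All 9 controls lay below the week 5 OE libraries for 40 of the 76, against 9.71% of protein-coding genes. For 11 of the 76 the 3 week 5 controls lay below all 6 earlier controls, against 2.42%. The week 5 values chose the genes, so these shares too are descriptions. Between the control groups limma called 2 of the 76 lower at 5 than at 2 weeks, *Cyp4a12b* and *Gm6614*, against 0.0471% of all genes, with 16 at an unadjusted p under 0.05, 3 by edgeR and 11 by DESeq2. Without week 2 control replicate 1, which is *Xist*-high, limma called 10, and without week 2 control replicate 2, week 2 control replicate 3 or week 5 control replicate 1 it called 0, and without week 5 control replicate 2 or 3 it called 1. Against the 1-week controls limma called 0 of the 76 lower, and 0% of all genes, with 13 members at an unadjusted p under 0.05, 0 by edgeR and 3 by DESeq2.

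**Figure D2:**
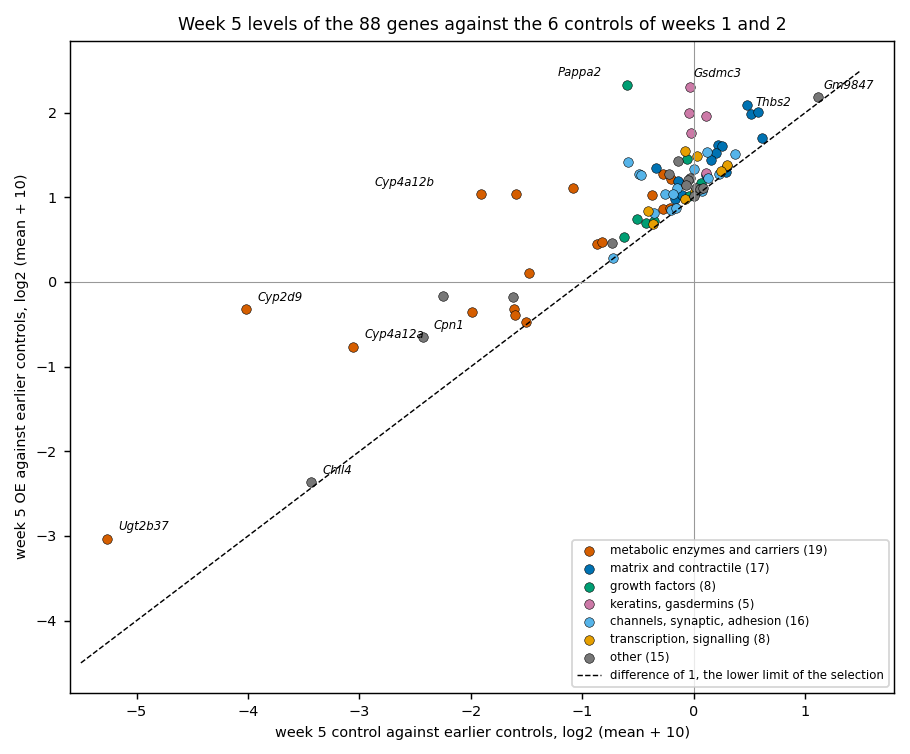
Each point is 1 of the 88 genes, with the week 5 control level on the x axis and the week 5 OE level on the y axis, both as log2 of (mean + 10) against the 6 controls of weeks 1 and 2, coloured by role. The dashed line marks the selection's limit of 1; the metabolic genes spread to the left, with a median of -1.48 on the x axis, and the matrix genes sit near 0.20.

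The metabolic group held the 2 largest 5-week ratios, those of *Cyp2d9* and *Cyp4a12b*. *Cyp2d9*, a cytochrome P450 more abundant in male than in female mice, lies on chromosome 15 from 82433437 to 82456845 of GRCm38. At 5 weeks it had 18.9, 674 and 137 in OE kidneys and 8.45, 15.5 and 12.3 in control kidneys, a ratio of 3.70. OE replicate 1 lay close to the highest control, and replicates 2 and 3 far above it. At 2 weeks it had 172, 296 and 427 in OE kidneys and 201, 1202 and 579.8 in control kidneys, with OE and control values that overlapped, and the week 5 OE values did not exceed the highest of those controls.

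*Cyp4a12a* and *Cyp4a12b*, fatty acid hydroxylases that androgen induces in the mouse kidney, lie beside *Cyp4a14* on chromosome 4. *Cyp4a12b* (chromosome 4 from 115411624 to 115439034) had 121, 365 and 378 in OE kidneys and 32.8, 27.3 and 25.6 in control kidneys at 5 weeks, a ratio of 2.95. At 2 weeks it had 87.96, 54.3 and 48.6 in OE kidneys and 77.5, 207 and 276 in control kidneys, a ratio of -1.42, and control replicate 1 was below the highest OE library. *Cyp4a12a* had 50.4, 224 and 233 in OE kidneys and 28.5, 26.4 and 24.6 in control kidneys at 5 weeks. Its week 5 controls were tightly grouped, at or near the lowest earlier control value of 28.4, while the highest earlier control held 1141 at 2 weeks. The week 5 OE mean of *Cyp4a12a* was below the earlier control mean, with a log2 ratio of -0.76, while that of *Cyp4a12b* was above it, at 1.04. *Cyp4a14*, a fatty acid hydroxylase inducible through PPAR alpha, had 19694, 46491 and 14686 in OE kidneys and 12215, 8417 and 9368 in control kidneys at 5 weeks and was not called by limma.

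*Vnn1*, a pantetheinase, had 2274, 3503 and 1906 in OE kidneys and 1452, 825 and 819 in control kidneys at 5 weeks and 947, 1227 and 1312 in OE kidneys and 1558, 3078 and 1615 in control kidneys at 2 weeks. Its order was thus reversed between the times, with all 3 OE values below all 3 control values at 2 weeks.

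The same reversal held for *Aldh1a7*, an aldehyde dehydrogenase, and *Ces2c*, a carboxylesterase. *Aldh1a7* had 258, 218 and 163 in OE kidneys and 374, 581 and 870.3 in control kidneys at 2 weeks and 347, 597 and 782 in OE kidneys and 217, 161 and 178 in control kidneys at 5 weeks. *Ces2c* had 283, 583 and 428 in OE kidneys and 954, 3486 and 1698 in control kidneys at 2 weeks and 865, 1525 and 1174 in OE kidneys and 506, 516 and 413 in control kidneys at 5 weeks. For both, neither week's OE values overlapped the controls, and the week 5 OE range lay within or close to the range of the earlier controls.

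Enzymes and carriers of vitamin D and retinol were among the members. *Gc*, the vitamin D binding protein, had 1198, 3578 and 2534 in OE kidneys and 608, 428 and 534 in control kidneys at 5 weeks, a ratio of 2.20, and its ratio was 0.37 at 1 week and 0.06 at 2 weeks. *Cyp24a1*, which inactivates the active form of vitamin D, had 3755, 3301 and 4213 in OE kidneys and 2257, 987 and 1261 in control kidneys and was not called by limma. *Rbp4*, the retinol carrier of plasma, had 108, 237 and 166 in OE kidneys and 97.2, 70.2 and 48.1 in control kidneys, also without a call. The week 5 OE level against the earlier controls was 1.11 for *Gc*, 0.45 for *Cyp24a1* and 0.87 for *Rbp4* on the log2 scale.

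Steroid handling was represented by *Hsd17b2*, which oxidises estradiol and testosterone, *Cyp7b1*, an oxysterol hydroxylase, and the glucuronosyltransferases *Ugt2b5* and *Ugt2b37*. *Hsd17b2* had 22.5, 94.4 and 80.9 in OE kidneys and 12.7, 16.4 and 14.3 in control kidneys at 5 weeks. *Cyp7b1* had 267, 306 and 375 in OE kidneys and 148, 130.3 and 113 in control kidneys, with no call by limma, and its highest control at 2 weeks held 1811 normalized reads beside 151 and 209.6 in the other controls of that week. *Ugt2b37* had 104, 57.03 and 174 in OE kidneys and 7.40, 30.1 and 10.2 in control kidneys at 5 weeks, again without a call, and its controls ranged widely at 2 weeks, with 29.7, 4228 and 908. For all 4 genes the week 5 OE mean was below the mean of the earlier controls, at -0.36, -0.39, -0.48 and -3.03 for *Hsd17b2*, *Cyp7b1*, *Ugt2b5* and *Ugt2b37* on the log2 scale. For *Cyp7b1* the earlier controls other than week 2 control replicate 2 held 83.1 to 209.6, all below its week 5 OE values. That library was also the highest earlier control of *Hsd17b2*, at 232, and of *Ugt2b37*, at 4228.

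Of the other metabolic members, *Acat3*, an acetyl-CoA acetyltransferase, *Rimkla*, a synthetase of N-acetylaspartylglutamate, *Mgat4c*, an N-acetylglucosaminyltransferase, and *Fabp1*, the liver-type fatty acid-binding protein, had 5-week ratios of 1.55, 1.23, 1.41 and 1.08. Over the group the median ratio was -0.29 at 1 week, -1.01 at 2 weeks and 1.43 at 5 weeks. Of the 19, limma called 12 higher at 5 weeks, the contrast that chose them, where 7.67% of all genes were called higher. It called 7 lower at 2 weeks, where 28.8% of all genes were called lower.

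Several of these genes differ between the sexes in mice, and *Xist*-high libraries fell unevenly over the groups. The list of androgen-responsive and sex-biased kidney genes holds the members *Cyp4a12a*, *Cyp2d9* and *Cyp7b1*. Its summed level at 5 weeks was 234844, 53995 and 60678 normalized reads in OE replicates 1, 2 and 3, against 260614 to 287976 in the controls. OE replicate 1 thus lay close to the controls and OE replicates 2 and 3 far below. Of these libraries replicates 1 and 3 were *Ddx3y*-high and replicate 2 was *Xist*-high. In the androgen list limma called 2 of 16 tested genes higher and 2 lower at 5 weeks, where the shares over all genes were 7.67% and 7.9%. Without week 5 OE replicate 2 or 3 it called 0 in either direction, without OE replicate 1 it called 7 lower, and without any 1 of the week 5 controls 0 higher. Over the 12 *Ddx3y*-high libraries alone, 70 of the 88 members had a 5-week ratio of at least 1, and the lowest was 0.640. The week 5 libraries among these 12 had helped to choose the members, so the count is a description and tests nothing. How far the full limits selected the same genes in these libraries is given below with the processing. In the 12 libraries *Cyp2d9* had 2.00 and *Cyp4a12b* 2.69, against 3.70 and 2.95 over all libraries, while *Cyp4a14* had 0.736 and *Vnn1* 0.871. The part of sex in these values was not tested.

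**Figure D3:**
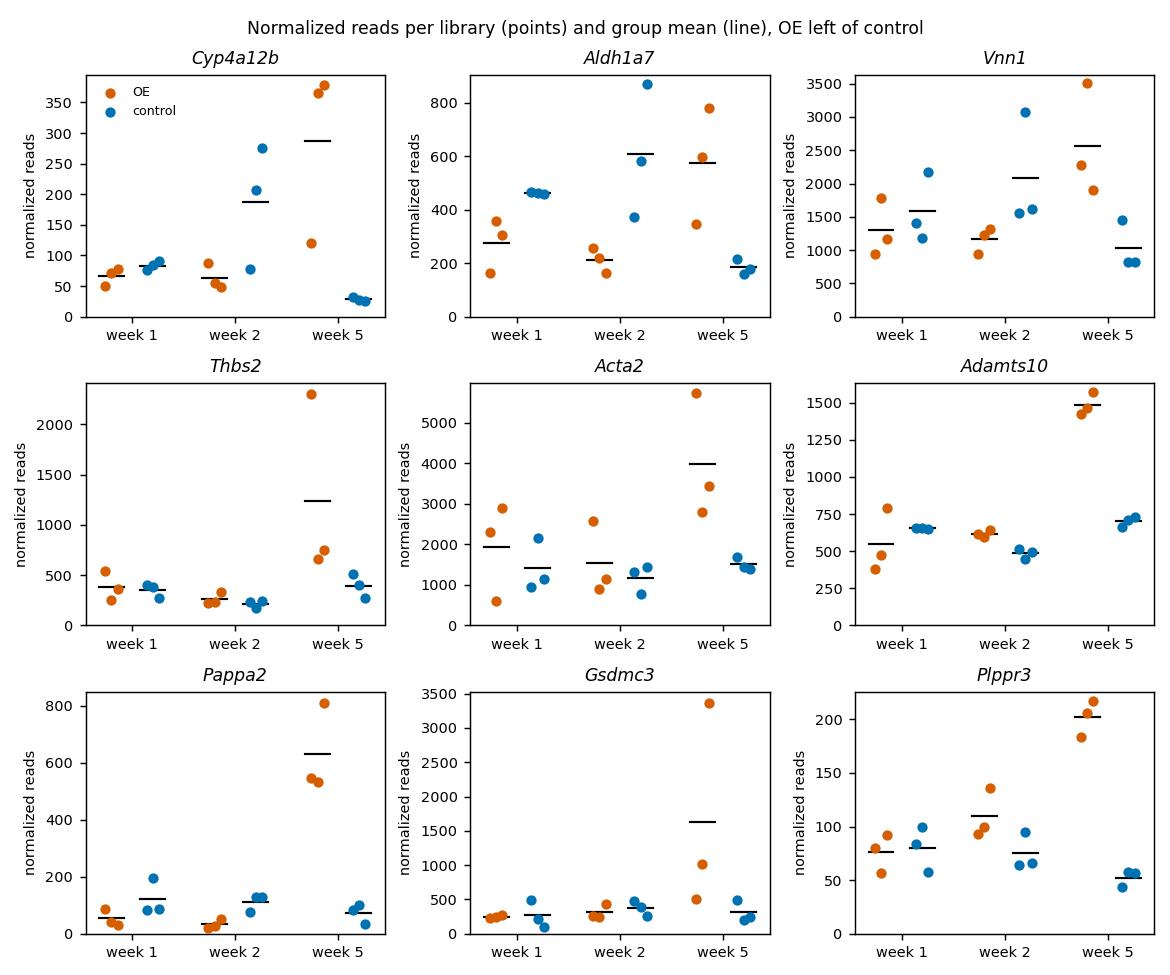
Points are normalized reads of 9 members in each library and lines are group means, with OE left of control in each week. The metabolic genes of the top row have low week 5 controls, and the matrix and contractile genes of the middle row have week 5 controls near the earlier ones. In the bottom row *Pappa2*, *Plppr3* and, narrowly, *Gsdmc3* have all 3 week 5 OE points above every other library. The same holds for *Thbs2* and *Adamts10* of the middle row.

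In the matrix group *Thbs2*, a matricellular glycoprotein on chromosome 17 from 14665500 to 14694235, had 2305, 660.04 and 749.7 in OE kidneys and 509, 404 and 273 in control kidneys at 5 weeks and a ratio of 1.62. OE replicate 1 was more than 3 times as high as either other OE library, and all 3 lay above the other 15 libraries. At 2 weeks its values were 221, 227 and 332 in OE kidneys and 229, 171 and 240.4 in control kidneys, with groups that overlapped. Metalloproteinases of the ADAMTS family were also members. *Adamts2*, which removes the amino-terminal propeptide of procollagens, had 2087, 921 and 1312 in OE kidneys and 686, 556 and 515 in control kidneys at 5 weeks. *Adamts10* had 1425, 1463 and 1573 in OE kidneys and 666, 713 and 731 in control kidneys, *Adamts16* 284, 332 and 299 in OE kidneys and 108, 72.01 and 140.1 in control kidneys, and their OE values were even across libraries, unlike those of *Adamts2* and *Thbs2*.

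*Acta2*, the smooth muscle actin that marks myofibroblasts as well as vessel walls, had 5723, 2787 and 3445 in OE kidneys and 1692, 1444 and 1387 in control kidneys at 5 weeks. The groups did not overlap there, but the OE libraries of 1 week had 2312, 610.4 and 2892, of which the highest exceeded the lowest week 5 OE value, and limma did not call the 5-week difference. *Actg2*, the enteric smooth muscle actin, had 99.1, 165 and 157 in OE kidneys and 38.04, 81.1 and 63.4 in control kidneys, again without a call. The glypicans *Gpc3* and *Gpc6*, proteoglycans held at the cell surface, had 5-week ratios of 1.01 and 1.35. *Gpc3* had 3646, 3104 and 3198 in OE kidneys and 2232, 1334 and 1359.5 in control kidneys, all above the other 15 libraries. *Fbn2*, a fibrillin of elastic microfibrils, had a ratio of 1.47 and was likewise above all 15.

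Within this group 12 of 17 genes were highest in OE replicate 1 and 13 lowest in OE replicate 2 at 5 weeks. *Cpxm2*, a carboxypeptidase-like secreted protein, is an example, with 397, 86.9 and 192 in OE kidneys and 68.7, 72.9 and 48.1 in control kidneys, and limma did not call it. *Ssc5d*, a secreted scavenger receptor protein, and *Antxr1*, an anthrax toxin receptor that binds matrix, had ratios of 1.15 and 1.14. Of the 17, limma called 12 higher at 5 weeks, again the contrast that chose them, where 7.67% of all genes were called higher.

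Marker lists of stromal cells were set beside the matrix members. Of the 26 fibroblast and matrix genes, which include the member *Thbs2*, limma called 9 higher and 0 lower at 5 weeks, with 0 lower at an unadjusted p under 0.05 and 0 by edgeR and by DESeq2. The shares over all genes were 7.67% higher and 7.9% lower. The median log2 fold change of the fibroblast and matrix genes was 0.86, beside 0.02 over all genes tested. Their higher count was 5 without week 5 OE replicate 1 or 3 or control replicate 2, and 4 without control replicate 3. Their summed level was 225359, 87708 and 131919 normalized reads in OE replicates 1, 2 and 3, against 72498 to 92968 in the controls, so OE replicate 2 lay within the control range. Of the 14 smooth muscle and pericyte genes 1 was called higher and 1 lower, beside the same shares over all genes. Their median was 0.08, and 0 were called higher once any 1 of the 6 week 5 libraries was left out. Their sums were 32403, 16947 and 20259 normalized reads in OE replicates 1, 2 and 3, against 20558 to 22552 in the controls. None of the genes of either list had a week 5 mean under 1 normalized read. Their part in the levels of the matrix members was not tested.

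**Figure D4:**
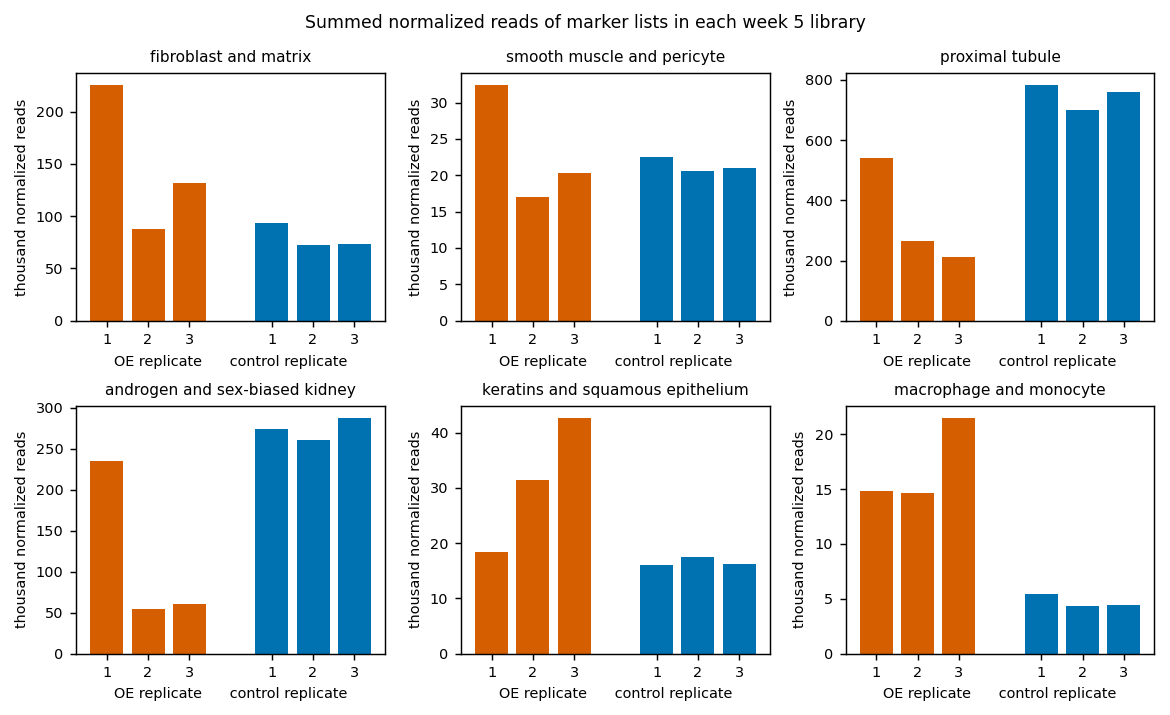
Bars are the summed normalized reads, divided by 1000, of 6 marker lists in the 3 OE (left) and 3 control (right) libraries of week 5. The lists are fibroblast and matrix, smooth muscle and pericyte, proximal tubule, androgen and sex-biased kidney, keratins and squamous epithelium, and macrophage and monocyte. OE replicate 1 has the highest fibroblast and smooth muscle sums and the proximal tubule sum nearest to the controls, while the keratin sum is highest in OE replicate 3.

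The metabolic members were chosen as higher at 5 weeks, so a contrast in direction with the proximal tubule list tests nothing. That list includes the member *Cyp7b1*. limma called 11 of its 24 genes lower at 5 weeks and 0 higher, where the shares over all genes were 7.9% and 7.67%. In it 2 were higher at an unadjusted p under 0.05, 0 by edgeR and 1 by DESeq2. The median of its log2 fold changes was -4.12 for 2 weeks and -1.15 for 5 weeks, and its summed level was 539894, 265896 and 213169 normalized reads in OE replicates 1, 2 and 3, against 700970.0 to 783198 in the controls. Leaving out week 5 OE replicate 2 or 3 brought the lower count to 6, leaving out any control of week 5 brought it to 7, and leaving out week 5 OE replicate 1 to 14. Of the 32 tested genes of drug and xenobiotic metabolism, among them the members *Cyp2d9*, *Cyp4a12a* and *Cyp4a14*, 5 were called higher and 4 lower at 5 weeks, where the shares over all genes were 7.67% and 7.9%. At 2 weeks 4 were called higher and 17 lower, where the shares were 28.9% and 28.8%. The higher count at 5 weeks was 1 without week 5 control replicate 2 or 3 and 2 without control replicate 1 or OE replicate 2 or 3, and the lower count was 2 without control replicate 1 and 1 without any 1 of the other 4 libraries named.

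Promoter windows, which the selection did not use, were also described. RefSeq windows of GRCm38.p6, from 250 bases before to 50 after the gene start, were matched for 49 of the 88 members and 13975 protein-coding genes. The dinucleotide CG occurred a median of 1 time in the 9 metabolic windows, with a range of 0 to 36, and 15 times in the 9 matrix windows, with a range of 4 to 41. The median was 7 over the 49 member windows and 16 over all 13975. Fewer than 5 were present in 7 of 9 metabolic and 1 of 9 matrix windows, and in 22.6% of all windows. This was noticed in the data and was not tested. The TATA motif TATAAA, searched on both strands, was in 9 of the 49 member windows (18.4%) and 11.2% of all, GGGCGG in 21 (42.9%) and 51.8%, and TGANTCA in 3 (6.12%) and 6.54%. TGTTCT was in 8 (16.3%) and 15%, and TTCNNNGAA in 4 (8.16%) and 7.53%. A match is a run of letters and not a binding site. The windows of the first named members by 5-week ratio in each group are printed to show the CG counts, with CG in capitals and the gene's strand after the position.
Ugt2b37 chr5:87254739-87255038 (-): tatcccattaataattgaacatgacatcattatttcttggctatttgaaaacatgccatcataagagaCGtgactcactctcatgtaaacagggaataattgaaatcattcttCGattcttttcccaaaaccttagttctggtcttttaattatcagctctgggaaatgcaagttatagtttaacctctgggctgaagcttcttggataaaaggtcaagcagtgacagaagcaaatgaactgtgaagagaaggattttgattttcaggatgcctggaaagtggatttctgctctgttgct
Gc chr5:89457849-89458148 (-): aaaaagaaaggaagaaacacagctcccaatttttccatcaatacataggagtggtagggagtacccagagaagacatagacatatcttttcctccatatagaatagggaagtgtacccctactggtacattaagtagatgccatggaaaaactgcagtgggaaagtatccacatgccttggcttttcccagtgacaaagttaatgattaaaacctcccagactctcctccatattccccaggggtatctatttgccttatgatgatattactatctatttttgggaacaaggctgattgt
Cpxm2 chr7:132154692-132154991 (-): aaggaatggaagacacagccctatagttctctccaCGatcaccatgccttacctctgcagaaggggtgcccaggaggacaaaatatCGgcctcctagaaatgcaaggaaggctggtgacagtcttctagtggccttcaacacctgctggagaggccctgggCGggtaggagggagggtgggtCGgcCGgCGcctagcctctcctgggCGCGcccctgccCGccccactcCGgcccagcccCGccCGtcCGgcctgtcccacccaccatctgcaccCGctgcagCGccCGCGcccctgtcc
Thbs2 chr17:14694213-14694512 (-): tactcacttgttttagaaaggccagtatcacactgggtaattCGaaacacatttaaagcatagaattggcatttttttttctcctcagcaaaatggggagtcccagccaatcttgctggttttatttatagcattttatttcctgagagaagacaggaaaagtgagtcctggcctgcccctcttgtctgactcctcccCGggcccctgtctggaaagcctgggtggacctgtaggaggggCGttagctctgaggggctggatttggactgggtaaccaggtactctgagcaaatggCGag

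*Gc* held 0 CG and *Ugt2b37* 2, against 17 in *Cpxm2*, while *Thbs2* had 4, the fewest of the matrix group. Since LIN28A acts on let-7, the site that pairs with its seed was also counted. The seed, bases 2 to 8 of the mature sequence, is in capitals and was read from the copy on chromosome 13 of GRCm38.p6.
mmu-let-7a-5p chr13:48538239-48538260 (-): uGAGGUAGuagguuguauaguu
Its match, CTACCTC, occurred in the longest annotated 3' UTR of 9 of 87 members (10.3%) and 10.1% of 20894 protein-coding genes. Per 1000 bases of 3' UTR there were 0.0624 sites in the members and 0.0731 in all genes. The 9 were *Adamts16*, *Cadm3*, *Foxp2* with 2 sites, *Gsdmc2*, *Gsdmc3*, *Rnf225*, *Sdk1*, *Tnik* and *Gm8113*.

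Among growth factors and their regulators *Pappa2* stood out. It encodes a protease that releases insulin-like growth factors from their binding proteins and lies on chromosome 1 from 158711727 to 158980490. At 5 weeks it had 547, 531 and 809 in OE kidneys and 84.5, 102 and 34.8 in control kidneys, a ratio of 2.93, with all 3 OE values above the other 15 libraries. At 1 week it had 87.7, 42.9 and 30.04 in OE kidneys and 82.5, 197 and 87.3 in control kidneys and at 2 weeks 19.5, 26.7 and 53.4 in OE kidneys and 77.5, 129.999 and 129 in control kidneys, ratios of -1.06 and -1.50. The OE values at 2 weeks were all below the controls, so its order too was reversed.

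*Fgf10*, a mesenchymal ligand of epithelial growth, had 124, 85.1 and 90.5 in OE kidneys and 53.9, 30.1 and 45.01 in control kidneys at 5 weeks and 10.7, 24.04 and 8.91 in OE kidneys and 33.6, 57.8 and 43.3 in control kidneys at 2 weeks. *Gdf11*, a ligand of the TGF-beta family, had 443, 494 and 337 in OE kidneys and 225, 191 and 158 in control kidneys at 5 weeks, and its ratio at 2 weeks was -0.75. *Bmp15*, of the same family and known from the oocyte, had 70.2, 183 and 60.6 in OE kidneys and 25.4, 32.8 and 32.7 in control kidneys. All 3 genes had their week 5 OE values above the other 15 libraries. *Hgf*, the hepatocyte growth factor, and *Sfrp4*, a secreted Wnt antagonist, had ratios of 1.15 and 1.13. *Sfrp4* had 145, 32.7 and 44.8 in OE kidneys and 27.5, 27.3 and 30.7 in control kidneys and was not called, with OE replicate 1 far above the other OE libraries. Over the 8 genes the median ratio was -0.83 at 2 weeks and 1.14 at 5 weeks.

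The keratin and gasdermin group was highest in OE replicate 3 for 4 of its 5 genes. *Krt15*, a keratin of basal cells in stratified epithelia, had 385, 322 and 1331 in OE kidneys and 150.03, 259 and 159 in control kidneys at 5 weeks, and *Krt4*, a keratin of stratified mucosa, had 27.02, 61.7 and 61.5 in OE kidneys and 2.11, 5.47 and 6.14 in control kidneys. *Gsdmc3* and *Gsdmc2*, neighbouring genes on chromosome 15 of the pore-forming gasdermin family, had ratios of 2.33 and 1.86. *Gsdmc3* had 509.7, 1023 and 3365 in OE kidneys and 493, 205 and 249 in control kidneys, and *Gsdmc2* 575, 1132 and 3154 in OE kidneys and 574, 339 and 406 in control kidneys. In both, OE replicate 1 exceeded the highest control only narrowly. *Pof1b*, an actin-binding protein of epithelial junctions, had 198, 210.4 and 369 in OE kidneys and 101, 92.1 and 133 in control kidneys.

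Of the 23 tested genes on the list of keratins and squamous epithelium, with *Krt4* and *Krt15* among them, limma called 10 higher and 0 lower at 5 weeks, with 1 lower at an unadjusted p under 0.05, 0 by edgeR and 0 by DESeq2. The shares over all genes at 5 weeks were 7.67% higher and 7.9% lower. At 2 weeks 11 were called higher and 2 lower, where 28.9% and 28.8% of all genes were. The list's median log2 fold change was 0.50 at 1 week, 0.86 at 2 weeks and 0.74 at 5 weeks. Over all genes tested it was -0.02, 0.01 and 0.02. The summed level was 18419.6, 31416 and 42714 normalized reads in OE replicates 1, 2 and 3, against 15995 to 17488 in the controls. The defining markers *Krt6a*, *Krt6b*, *Krt13*, *Krt16*, *Dsg3*, *Sprr1b*, *Sprr2a1* and *Sprr3* had week 5 means under 1 normalized read. The part of squamous cells in the members' levels was not tested.

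A further 16 genes encode ion channels, synaptic proteins or adhesion molecules. *Plppr3*, a membrane protein related to lipid phosphatases, had 184, 206 and 217 in OE kidneys and 43.3, 57.4 and 56.3 in control kidneys at 5 weeks, a ratio of 1.77 with little spread in either group. *Kcna2*, a voltage-gated potassium channel subunit, had 26.1, 79.5 and 35.2 in OE kidneys and 12.7, 6.38 and 2.05 in control kidneys, and *Kcnma1*, the pore subunit of the calcium-activated potassium channel, had a ratio of 1.10. *Ano1*, a calcium-activated chloride channel, had 1414, 585 and 841 in OE kidneys and 446, 312 and 284 in control kidneys. All 3 week 5 OE libraries were above the other 15 for each of these 4 genes.

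*Gabrg1* and *Gabra2*, subunits of the GABA-A receptor that lie 115 kb apart on chromosome 5, had ratios of 1.33 and 1.05. *Alcam*, an adhesion molecule of the immunoglobulin family, had 4217, 2116 and 2734 in OE kidneys and 1684, 1462 and 1371 in control kidneys at 5 weeks. *Sdk1*, a synaptic adhesion molecule, had 336, 556 and 429 in OE kidneys and 203, 218 and 164 in control kidneys, and was 1 of the 2 members called higher already at 2 weeks, at 215, 221 and 176 in OE kidneys and 152, 148 and 129.9 in control kidneys. *Bsn*, a scaffold of the presynaptic zone, had 19.8, 32.7 and 48.3 in OE kidneys and 5.28, 16.4 and 13.3 in control kidneys. Its week 5 OE values overlapped the controls of 2 weeks, 47.8, 28.9 and 23.9.

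*Cadm3*, a cell adhesion molecule, had 63.9, 14.02 and 103 in OE kidneys and 10.6, 4.56 and 7.16 in control kidneys at 5 weeks and 0, 3.56 and 7.29 in OE kidneys and 19.4, 13.3 and 11.4 in control kidneys at 2 weeks. Its gene (chromosome 1 from 173333258 to 173367695) overlaps *Ackr1*, a decoy receptor for chemokines, by 0.492 kb. *Ackr1* had 13.5, 2.80 and 50.98 in OE kidneys and 0, 1.82 and 1.02 in control kidneys, the same order of OE libraries as *Cadm3*, and 16.9% of the 75-base windows of its transcripts also occur in *Cadm3*. Both genes lie on the minus strand, so strand does not separate reads from the stretch they share.

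Of the 8 genes of transcription and intracellular signalling, 6 lay above the other 15 libraries at 5 weeks. *Kctd15*, a BTB-domain protein, had 704, 754 and 716 in OE kidneys and 349.7, 368 and 305 in control kidneys and the transcription factor *Etv1* 171, 168 and 199.5 in OE kidneys and 105, 46.5 and 58.3 in control kidneys. *Foxp2*, a forkhead transcription factor, had 214, 95.4 and 120.4 in OE kidneys and 81.4, 16.4 and 39.9 in control kidneys, and *Kif26b*, a kinesin needed for kidney development in the mouse, had 781, 818 and 953 in OE kidneys and 299, 416 and 479.8 in control kidneys. *Zfp57*, a zinc finger protein that maintains imprints, had 295, 259.9 and 269 in OE kidneys and 117, 144 and 117 in control kidneys. *Adcy2*, an adenylyl cyclase, had 124, 35.5 and 55.4 in OE kidneys and 26.4, 13.7 and 9.21 in control kidneys and the kinase *Tnik* 136, 82.3 and 126 in OE kidneys and 52.8, 43.8 and 54.2 in control kidneys. The OE values of *Kctd15*, *Etv1*, *Kif26b* and *Zfp57* were close together, whereas *Foxp2* and *Adcy2* were highest in OE replicate 1.

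The 15 remaining members had few reads in many libraries. *Cpn1*, the catalytic subunit of carboxypeptidase N, was an exception, with 1402, 354 and 368 in OE kidneys and 249, 80.2 and 268 in control kidneys at 5 weeks, where it was not called, and 68.4, 80.1 and 80.2 in OE kidneys and 327, 1117 and 153 in control kidneys at 2 weeks. Its OE values at 2 weeks were all below the controls. *Tmprss6*, a membrane protease that limits hepcidin, had 8.11, 40.2 and 34.3 in OE kidneys and 5.28, 4.56 and 0 in control kidneys, and *H2-M5*, a class I histocompatibility gene beside *Zfp57* on chromosome 17, had 19.8, 14.02 and 28.1 in OE kidneys and 5.28, 6.38 and 3.07 in control kidneys. *Chil4*, a chitinase-like protein, had 4.50, 9.35 and 22.9 in OE kidneys and 0, 1.82 and 0 in control kidneys at 5 weeks. At 1 week it had 52.4, 412 and 294 in OE kidneys and 579.7, 4.37 and 2.13 in control kidneys, a ratio of 0.35. Its OE values were thus higher at 1 week than at 5 weeks, and control replicate 1 lay far above the other controls of week 1. By limma its log2 fold change was 3.13 at 1 week and 2.97 at 5 weeks, with no call at either time.

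Reads shared between near-identical copies make some levels uncertain. In the annotated transcripts, 12 of the 88 members had more than 20% of their 75-base windows in another gene as well. *Cyp4a12b* and *Cyp4a12a* shared 41.3% and 40.8% of theirs with each other. For *Gsdmc2* and *Gsdmc3* 39.3% and 35.8% were shared with other genes, for *Xlr3b* 45.1%, *Acat3* 48.8%, *Ugt2b5* 30.4% and *Ces2c* 22.1%. *Insl3* shared 60.1% with the overlapping *Jak3* and *Gm9847* 57.1% with *Socs2*. How the authors counted such reads sets how these genes are divided, so the separate values of *Cyp4a12a* and *Cyp4a12b*, or of *Gsdmc2* and *Gsdmc3*, are less sure than those of single-copy members.

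Over all 88 genes the highest OE library at 5 weeks was replicate 1 for 28, replicate 2 for 28 and replicate 3 for 32. By group it was replicate 1 for 12 of 17 matrix genes, replicate 2 for 11 of 19 metabolic genes and replicate 3 for 4 of 5 keratin and gasdermin genes. The median ratio of the highest to the lowest OE library was 2.25 over all genes, 1.44 for transcription and signalling, and 4.14 for keratins and gasdermins. Leaving out 1 library changed the membership: without week 5 OE replicate 2 the same limits selected 152 genes, 73 of them among the 88, and without week 5 control replicate 1 they selected 135, with 81 shared.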

How the data were processed

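Bulk kidney RNA was sequenced in 18 libraries, 6 groups of 3. The deposited values are a signal per gene that the authors obtained by mapping reads to mm10 (STAR), quantifying genes (HTSeq) and scaling by DESeq2 size factors. Versions, annotation release and strand setting are not given in the sources used here. Dividing by the value of 1 read gave whole reads for 100% of values within 0.001. Of the gene identifiers 99.5% matched GENCODE M21 (GRCm38), the source of coordinates.

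The members were selected on the deposited values, and the members, gene lists and role groups were chosen with earlier results of these data known. limma 3.58.1 (R 4.3.3) with an intensity trend was run on log2(value + 1) for genes with a mean above 10, after the script was tested on simulated data. A log2 fold change on this scale understates the change of low genes. edgeR 4.0.16 with TMM and DESeq2 1.42.0 on recovered reads, other pseudocounts and filters, fits of fewer weeks, a replicate block and leaving out each library were alternatives. Of 37 lists with 707 genes 705 were matched. Results are given for the 6 lists the report describes.

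Members with an assigned name were named by rule, 34 in all: the 20 with the largest 5-week ratio, the 8 with the highest week 5 OE mean, up to 4 from each list, the 3 members nearest to each limit, beside the 3 genes that just missed it, and the 10 with the lowest ratio at 2 weeks. Other members were named to complete role groups, after their values were seen. The values of 1 named member are not reported here. Plots used matplotlib 3.10.9 (Python 3.11.15). Recovered totals per library limit the precision of genes with few reads.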

Additional observations from a re-analysis of the deposited data

Results flagged for a closer look

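The OE effect of some named members differed between times by limma's interaction term, at an adjusted p under 0.05 over all 16984 genes. The selection set the 5-week difference high and the earlier ones low, so these differences describe the members and are no independent result. The log2 fold change at 5 weeks exceeded that at 2 weeks by 5.67 for *Cyp4a12a*, 5.631 for *Ugt2b37*, 4.992 for *Pappa2*, 4.725 for *Cadm3*, 4.527 for *Cyp4a12b*, 4.163 for *Cyp2d9*, 4.006 for *Cpn1*, 3.732 for *Ugt2b5*, 3.383 for *Ces2c*, 3.36 for *Cyp24a1*, 3.016 for *Aldh1a7*, 2.636 for *Hsd17b2*, 2.599 for *Krt4*, 2.295 for *Gsdmc3*, 2.098 for *Vnn1*, 2.044 for *Cyp4a14*, 1.886 for *Bsn*, 1.803 for *Krt15*, 1.393 for *Plppr3*, 1.105 for *Gpc3* and 0.8903 for *Alcam*.

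Against 1 week the excess was 4.38 for *Pappa2*, 4.06 for *Kcna2*, 3.474 for *Cyp4a12b*, 2.482 for *Ces2c*, 2.386 for *Aldh1a7*, 2.347 for *Cyp4a14*, 2.008 for *Plppr3*, 1.616 for *Vnn1* and 1.153 for *Gpc3*. For *Pappa2*, *Ces2c*, *Aldh1a7* and *Vnn1*, among others, all 3 OE libraries lay below all 3 controls at 2 weeks and above all 3 at 5 weeks. The groups had 3 libraries each, too few to look for single outlying libraries.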

How the results depend on the processing

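The 88 genes depended on the limits and libraries. With 1 added to the means in place of 10 the limits selected 143 genes, 72 of them shared, with a 5-week limit of 1.5 they selected 24, with an early limit of 0.25 49 and with one of 1 183. Leaving out 1 library gave 76 to 152, with 152 without OE replicate 2 and 135 without control replicate 1 of week 5. The 12 *Ddx3y*-high libraries, an alternative chosen after seeing the data, gave 183, with 57 shared. Of the 1302 genes called higher and 1341 called lower at 5 weeks, the week 5 libraries alone gave 817 and 834, the 12 libraries 591 and 492, and leaving out 1 library 653 to 1671 and 651 to 1850. Of the week 5 libraries, OE replicate 3 and control replicates 2 and 3 brought the higher count to 653, 824 and 798 when left out, and the lower count to 651, 789 and 760, while OE replicate 2 brought the lower count to 687. On the recovered reads edgeR called 1420 higher and 1275 lower, and DESeq2 1792 and 1639. The 58 members called at 5 weeks became 38 with a mean above 50, 22 with the 12 libraries and 29 to 47 with 1 library left out. The 38 members in the interaction of 5 and 2 weeks ranged over 28 to 40, and the 18 of 5 and 1 weeks over 11 to 21, with 11 with no filter, 28 by DESeq2 and 10 with the 12 libraries. The 16 members lower at 2 weeks became 10 with a mean above 50 and 12 to 19 without 1 library. The 3 lower at 1 week became 1 with a mean above 50, 5 with the week 1 libraries alone and 1 to 4 without 1 library. The 2 members lower in controls at 5 than at 2 weeks became 1 with a mean above 50, 11 by DESeq2, 0 with weeks 5 and 2 alone, 8 with the 12 libraries and 0 to 10 without 1 library. The 0 lower than at 1 week became 3 by DESeq2.

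Among the lists at 5 weeks, the fibroblast genes called higher numbered 4 to 8 with 1 library left out. The 1 smooth muscle gene became 0 with no filter, 2 by DESeq2 and with week 5 alone, 0 with the 12 libraries and 0 without any 1 library. The proximal tubule genes called lower numbered 7 by edgeR and with week 5 alone, 6 with the 12 libraries and 6 to 14 without 1 library, and those called higher 1 by DESeq2, with week 5 alone and under the block, and 0 to 1 without 1 library. The androgen list's higher count was 1 with no filter, 0 with the 12 libraries and 0 to 2 without 1 library, and its lower count 1 with no filter, 1 with week 5 alone, 0 with the 12 libraries and 0 to 7. The drug list's higher count was 3 with no filter and with week 5 alone, 9 by DESeq2, 0 with the 12 libraries and 1 to 6, and its lower count 1 with no filter, by edgeR and with week 5 alone, 2 by DESeq2 and with the 12 libraries and 1 to 4. Keratin genes called higher numbered 6 with the 12 libraries and 7 to 13. The causes were not tested.

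At 5 weeks same-numbered OE and control libraries correlated by 0.206, 0.0815 and 0.00449 in their deviations from the group means, so the numbers are not taken as pairs. With the replicate number as a block, 56 members were called at 5 weeks and 6 as lower in the controls at 5 than at 2 weeks. Of 488 alternative values for 33 named members none changed sign, 93 were no longer called and 10 became called. Counting error limits the precision of the members with few reads.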

Other observations

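Outside the protein-coding genes, 24 rows met the same limits, among them 7 of the class TEC, 6 antisense transcripts, 3 lincRNAs and 3 processed pseudogenes. These examples were chosen after their values were seen. *2600014E21Rik*, an antisense transcript, had 22.5, 46.7 and 170.5 normalized reads in OE kidneys and 1.06, 5.47 and 4.09 in control kidneys at 5 weeks, a ratio of 2.73. *Uckl1os*, antisense by its annotation, had 20.7, 38.3 and 38.7 in OE kidneys and 7.40, 12.8 and 10.2 in control kidneys. Whether these reads came from the annotated strand cannot be told apart, since the strand setting is not given in the sources used here.

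Genes close to the members in function missed a single limit. *Pappa*, which like *Pappa2* encodes a protease of insulin-like growth factor binding proteins, had a 5-week ratio of 1.86 and missed on 0.504 at 2 weeks. *Col1a1*, a chain of type I collagen, had 1.73 at 5 weeks and missed on 0.530 at 1 week. *Loxl1*, an enzyme that cross-links elastin, had 0.988 at 5 weeks.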
